A study of Mus musculus with 6 samples.

Results

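The glycolysis and hypoxia response genes described here are 34 genes listed by name for glucose transport, glycolysis, lactate handling and the hypoxia inducible factor (HIF) pathway, out of 38924 genes in the count files. All 34 were matched by gene identifier, and all 34 passed the filter on low counts. They were measured by RNA sequencing in cartilage of the anterior nasal septum, cut by laser from frozen head sections of C57BL/6 mouse embryos at embryonic day 14.5. The WT group had 3 libraries, each from its own mouse, and the Apert group had 3 libraries from separate mice of genotype Fgfr2+/S252W; EIIA-Cre. Fgfr2 encodes a fibroblast growth factor receptor, S252W is the substitution found in Apert syndrome, and EIIA-Cre is a recombinase transgene active in the early embryo, so the allele is expected in most tissues and not in cartilage alone. The labels name no Cre transgene for the WT group, so the allele and the transgene cannot be told apart. The comparison asks how RNA levels at this site differ between Apert and WT embryos.

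Glycolysis splits glucose into pyruvate in the cytosol and yields ATP without oxygen, and lactate dehydrogenase then turns pyruvate into lactate, which leaves the cell through monocarboxylate transporters. Cartilage has no blood vessels, and growth plate chondrocytes are known to rely on glycolysis and on HIF1A. In oxygenated cells prolyl hydroxylases of the EGLN family mark HIF1A protein for destruction through VHL; in low oxygen the protein persists, pairs with ARNT and binds hypoxia response elements near glycolytic and other genes. HIF1A is controlled largely at the protein level, so its RNA is not a readout of its activity.

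The core of the hypoxia response element, ACGTG, was searched in RefSeq promoter windows of build GRCm38.p6, which run from 250 bases before to 50 bases after a transcript start. The table held 43 windows for 30 of the 34 genes, and Slc2a3, Epas1, Bnip3l and Ndrg1 had none. ACGTG stood on either strand in 23 of the 43 windows (53.5%), belonging to 21 genes, against 19.6% of the 32851 windows of all genes. The windows of these genes were richer in GC, with a median of 62.7% against 52.7%. Among windows of at least 60% GC, 68.0% of the 25 windows of these genes held ACGTG, against 26.5% of 9690. With the variant core GCGTG also counted, which can overlap ACGTG, the shares were 79.1% and 43.8%. A match is a description of letters and not evidence of a bound site. The windows of an enzyme that makes lactate, an enzyme of lower glycolysis and a pair of HIF targets are shown as examples that hold ACGTG. No window of Gpi1, Pfkl, Pfkp, Tpi1, Eno1, Ldhb, Pdk1, Arnt or Vhl held it, and these are not shown. Capitals mark ACGTG or, for the other strand, CACGT.
Ldha: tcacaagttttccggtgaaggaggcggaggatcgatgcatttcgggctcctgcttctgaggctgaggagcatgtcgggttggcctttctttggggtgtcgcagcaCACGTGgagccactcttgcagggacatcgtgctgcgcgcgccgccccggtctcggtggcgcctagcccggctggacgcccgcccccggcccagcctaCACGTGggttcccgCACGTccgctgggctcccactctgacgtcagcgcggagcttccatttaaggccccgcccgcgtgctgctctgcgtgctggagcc
Pgk1: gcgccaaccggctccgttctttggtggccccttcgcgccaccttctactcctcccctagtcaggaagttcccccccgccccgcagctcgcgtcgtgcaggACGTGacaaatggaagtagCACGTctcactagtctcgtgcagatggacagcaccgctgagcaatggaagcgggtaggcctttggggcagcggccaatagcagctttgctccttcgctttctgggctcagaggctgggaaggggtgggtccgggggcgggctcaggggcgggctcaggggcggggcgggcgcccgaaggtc
Bnip3: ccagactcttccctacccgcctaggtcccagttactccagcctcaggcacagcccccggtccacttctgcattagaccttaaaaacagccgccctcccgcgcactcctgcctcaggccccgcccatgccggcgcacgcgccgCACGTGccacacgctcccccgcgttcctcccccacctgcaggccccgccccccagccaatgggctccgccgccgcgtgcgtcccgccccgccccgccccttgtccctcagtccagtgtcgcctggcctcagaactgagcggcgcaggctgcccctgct
Ankrd37: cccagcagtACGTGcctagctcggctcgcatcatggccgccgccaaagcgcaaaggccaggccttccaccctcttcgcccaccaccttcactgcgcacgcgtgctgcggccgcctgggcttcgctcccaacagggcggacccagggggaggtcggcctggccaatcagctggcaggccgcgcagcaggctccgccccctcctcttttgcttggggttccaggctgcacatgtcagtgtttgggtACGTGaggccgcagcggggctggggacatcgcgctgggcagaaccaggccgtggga
Ldha had 2 windows, of which only the 1 shown held ACGTG, and it was picked for having the most matches. That Ldha window (chr7:46845554-46845853, plus strand) held the palindrome CACGTG at 145 and at 48 bases before the start, which counts on both strands, and a further core at 34 bases before it. The Pgk1 window (chrX:106186850-106187149, plus strand) held cores at 150 and 131 bases before the start. The Bnip3 window (chr7:138909457-138909756, minus strand) held 1 palindrome at 108 bases before the start. The Ankrd37 window (chr8:45999801-46000100, minus strand) held cores at 241 and at 6 bases before the start.

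Total counts were 8631181 to 10834744 per WT library and 6760510 to 10527915 per Apert library. Before scaling, 1 count was thus worth 0.0923 to 0.1479 CPM (counts in a library of 1000000 counts). Gene levels given here are CPM further scaled with TMM factors of 0.9129 to 1.0705, which shifts the worth of 1 count in each library. Genes of the mitochondrial genome held 29.6% ± 0.756 of the WT counts and 37.1% ± 3.06 of the Apert counts (SD, n = 3 each), with no overlap between groups. All 13 defining cartilage genes were detected, led by Col2a1, with summed levels of 37172 to 47890 CPM in WT and 38413 to 41626 CPM in Apert. Summed levels of the endothelial list (204 to 338 CPM in WT, 205 to 292 CPM in Apert), the erythroid list (51.7 to 94.2 and 59.2 to 71.5 CPM) and the neuronal list (40.6 to 65.5 and 52.5 to 101 CPM) overlapped between groups. So did those of the macrophage list (9.88 to 16.9 and 7.93 to 19.7 CPM), the skeletal muscle list (0.26 to 3.86 and 0.992 to 2.11 CPM, with Myh8, Tnni1, Ckm and Myog at 0) and the epithelial list (1.62 to 3.37 and 2.18 to 4.36 CPM, with Krt14, Krt15 and Cdh1 at 0). Single genes led some of these sums. Erg led the endothelial sum, and 7 of the 12 endothelial genes were under 1 CPM in every library. Map2 led the neuronal sum, with 6 of 12 genes under 1 CPM in every library, and Alas2 the erythroid sum, with 3 of 11. Proliferation genes summed to 1070 to 1555 CPM in WT and 2387 to 3006 CPM in Apert. Of these 8 genes 7 were called higher by edgeR, against 53 of 13333 over all genes. Over all genes, the number called higher was 4 with a correction for GC content and 0 to 119 with each library left out.

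Levels of the 34 genes in WT cartilage spanned a wide range. Per kilobase of exon, Gapdh, the enzyme that oxidises glyceraldehyde 3-phosphate, stood at 209 ± 44.1 CPM per kb (SD, n = 3) and ranked 60 of the 13333 genes tested. Ldha, the subunit that favours making lactate, stood at 143 ± 13.7 CPM per kb and ranked 102. Ldhb, the subunit that favours using lactate, followed at 51.2 ± 15.4 CPM per kb, and the glucose transporter gene Slc2a1 (GLUT1) at 47.7 ± 7.73 CPM per kb, a pair that did not differ beyond their spread. Pkm, P4ha1, Eno1 and Hif1a came next at 35.7 ± 5.68, 35.4 ± 1.32, 32.2 ± 5.97 and 29.4 ± 0.584 CPM per kb, and the SD ranges of Pkm, P4ha1 and Eno1 overlapped. Of the glycolytic enzymes, Pfkl, Pfkm, Aldoc, Pfkp and Hk1 ranked only 6940, 7166, 9727, 11568 and 11902. The lowest of the 34 were Hk1, Epas1, Ndrg1 and Slc2a3, at 0.774 ± 0.0935, 0.753 ± 0.301, 0.676 ± 0.528 and 0.459 ± 0.0912 CPM per kb. Of the 34 genes, 33 had at least 1 CPM in all 6 libraries, the exception being Ndrg1.

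**Figure D1:**
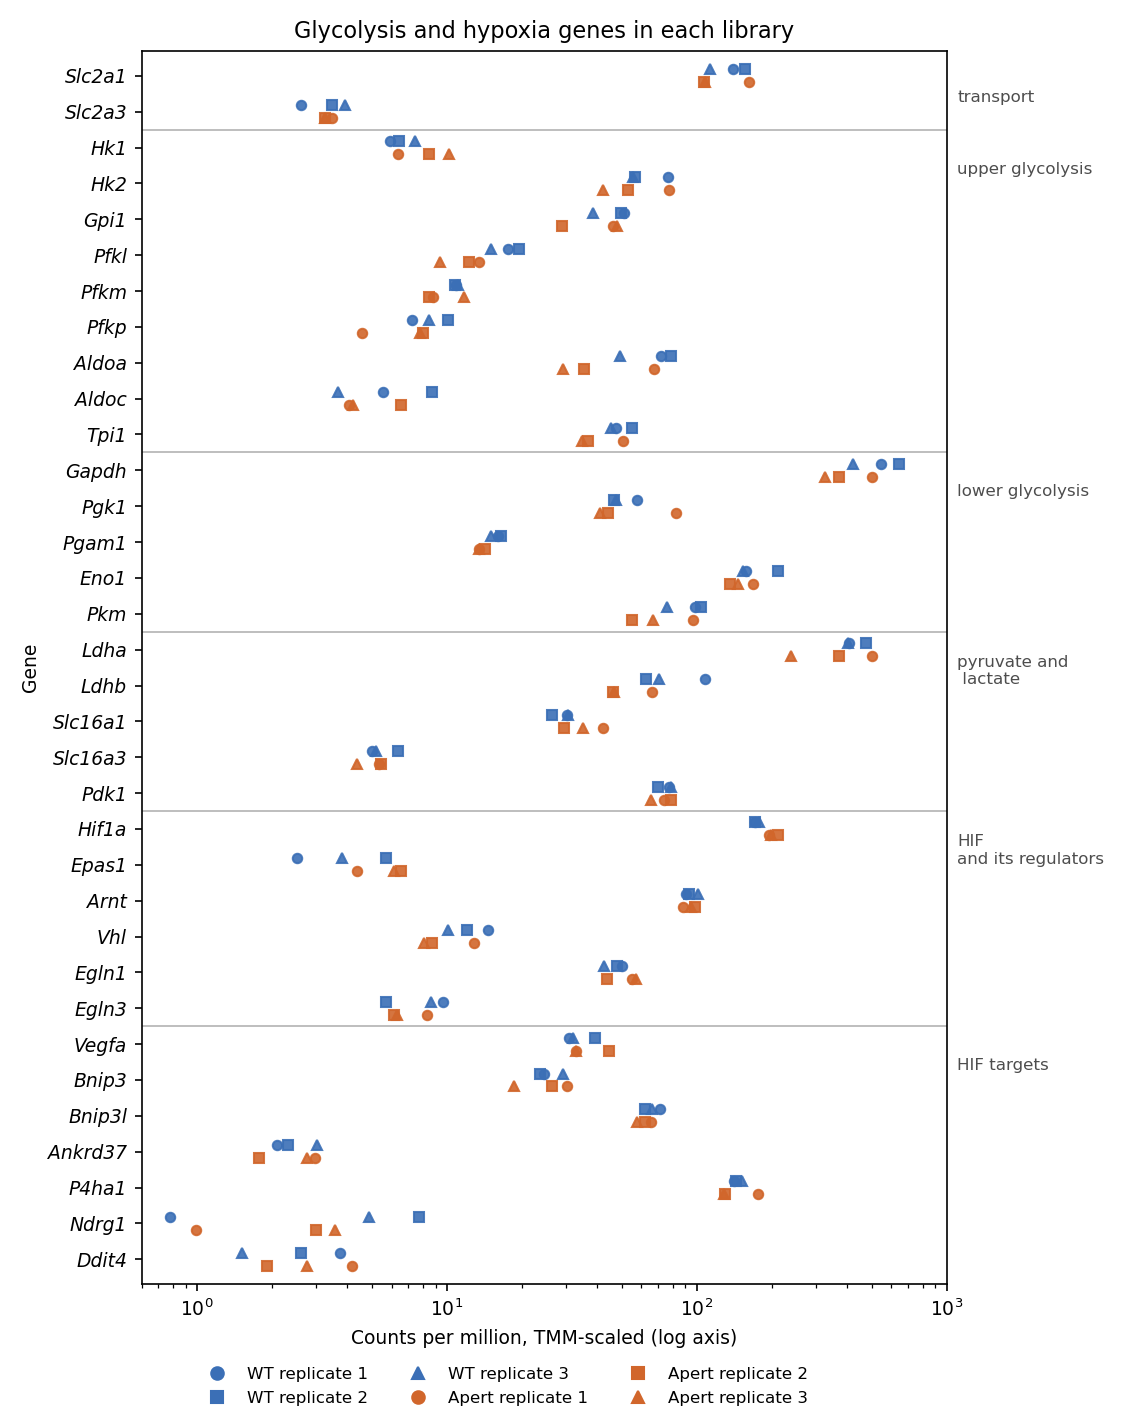
CPM, scaled by TMM (log axis), of each of the 34 genes in each library, with WT in blue, Apert in orange and marker shape for the replicate. Gapdh and Ldha are the highest rows and Ndrg1 reaches the lowest value, and only in Pfkl, Pgam1 and Hif1a do the colours separate fully.

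None of the 34 genes was called between Apert and WT by edgeR's quasi-likelihood test at an adjusted p under 0.05, where 60 of 13333 genes were called (0.45%), 53 higher and 7 lower in Apert (17 higher and 24 lower with library totals alone in place of TMM scaling). The smallest adjusted p among the 34 was 0.259, for Ldhb. DESeq2 and limma-voom also called 0 of the 34. At an unadjusted p under 0.05, 4 genes were lower in Apert (11.8%, against 5.01% of all genes tested) and 0 were higher (against 6.35%). The 4 were Ldhb, Gapdh, Aldoa and Pfkl, all enzymes of glycolysis or lactate handling. With the GC correction set out below, 1 of the 34 was lower and 1 higher at this threshold. Over all 13333 genes, 402 were lower and 596 higher in that fit. With each library left out, 1 to 9 of the 34 were lower, the 9 being without Apert replicate 1, and 0 were higher. The groups did not overlap for Hif1a, higher in Apert (2.94% of the 34, against 8.92% of all genes), or for Pfkl and Pgam1, lower in Apert (5.88%, against 7.7%), shares below the background in both directions. The fitted log2 fold change (Apert minus WT) was below 0 for 24 genes and above 0 for 10, so 70.6% lay below 0 against 48.9% of all genes, and the median was -0.12 against 0.01. With library totals alone 29 of the 34 lay below 0, while the median of all genes moved to -0.14. The median of the 34 was -0.05, with 20 below 0, without Apert replicate 3 and -0.21 without Apert replicate 1, where 28 lay below 0.

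By their median, these estimates were more precise than those over all genes, though some, such as those of Ndrg1, Ddit4 and Ankrd37, were less precise. The median standard error of the log2 fold change was 0.21 over the 34 genes and 0.28 over all genes tested, and the coefficient of variation among WT libraries had medians of 14.2% and 18%. The 95% interval lay within 1 log2 unit of 0 on both sides for 24 of the 34 genes, and its median width to either side was 0.45. The widest, for Ndrg1, was 1.38. In simulated counts with the same library sizes, changed genes were drawn from all genes that passed the filter, not from the 34 alone. The test recovered 46 of 100 genes changed 2-fold and 86 of 100 changed 4-fold. At this size, changes of 2-fold or less could thus go without a call, and recovery for the 34 genes themselves was not measured.

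**Figure D2:**
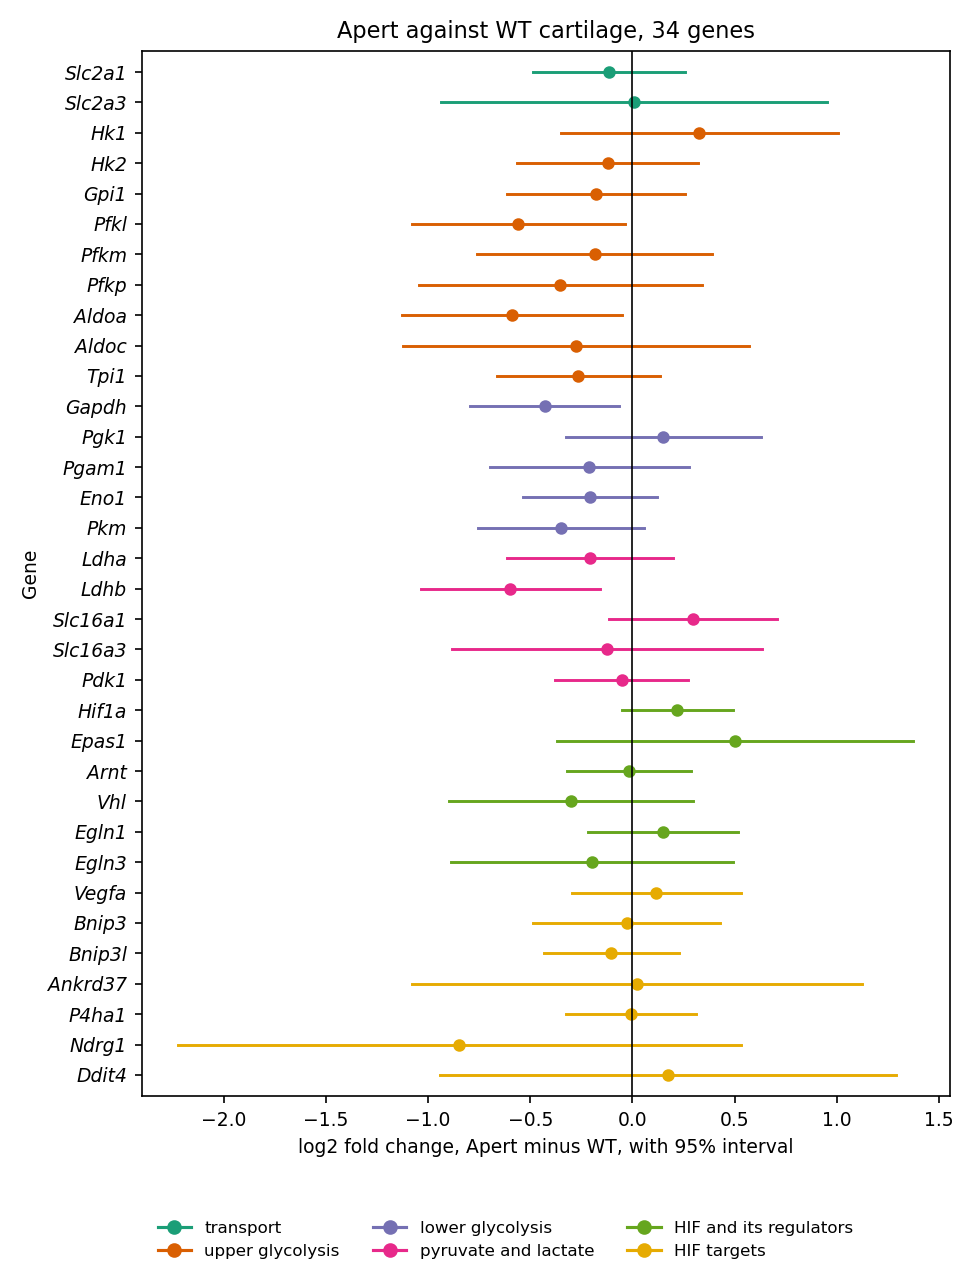
Fitted log2 fold change, Apert minus WT, of each of the 34 genes (point) with its 95% interval from edgeR (bar), coloured by role. Only the intervals of Pfkl, Aldoa, Gapdh and Ldhb exclude 0, all on the side lower in Apert, and none of the 4 passed adjustment over all genes.

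Of the glucose transporter genes in the list, Slc2a1 was far above Slc2a3. Slc2a1 (chr4:119108711-119137330) stood at 139, 156 and 113 CPM in WT replicates 1, 2 and 3 and at 162, 107 and 108 CPM in Apert replicates 1, 2 and 3. Apert replicate 1 was the highest of the 6 and the other Apert libraries the lowest, so the groups overlapped (log2 -0.12 ± 0.18 SE, adjusted p = 0.858, edgeR). Slc2a3 (GLUT3), the transporter typical of neurons, stood between 2.6 and 3.9 CPM in all 6 libraries. Slc2a1 made up 99.0% ± 0.322 of the pair per length in WT and 98.9% ± 0.199 in Apert (SD, n = 3 each). Other transporters were not in this share, among them Slc2a10, which stood at 4.42 ± 0.707 CPM per kb in WT, against 47.7 ± 7.73 for Slc2a1 and 0.459 ± 0.0912 for Slc2a3.

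In upper glycolysis, the steps that spend ATP and split the sugar, 8 of 9 genes had a log2 fold change below 0, with a median of -0.27, and none was called. Pfkl, the liver-type subunit of phosphofructokinase (chr10:77986947-78010083), stood at 17.5, 19.4 and 14.9 CPM in WT and at 13.4, 12.3 and 9.4 CPM in Apert. Every Apert library was below every WT library (log2 -0.56 ± 0.25 SE, unadjusted p = 0.0376, adjusted p = 0.408, edgeR). Aldoa, the main aldolase (chr7:126795234-126800751) and the most abundant of the 9 per length at 24.2 ± 5.64 CPM per kb in WT, stood at 71.9, 78.8 and 49.1 CPM in WT and at 67.6, 35.3 and 29.2 CPM in Apert. Apert replicate 1 lay among the WT libraries and the other Apert libraries below all of them (log2 -0.59 ± 0.26 SE, unadjusted p = 0.0339, adjusted p = 0.397, edgeR). Tpi1, triose phosphate isomerase (chr6:124810586-124814296), stood at 47.3, 54.8 and 45.2 CPM in WT and at 50.9, 36.6 and 34.7 CPM in Apert. It had the same layout, with only Apert replicate 1 inside the WT range (log2 -0.27 ± 0.19 SE, adjusted p = 0.646, edgeR). Hk1, the housekeeping hexokinase, was the one gene above 0, at 5.89 to 7.47 CPM in WT and 6.35 to 10.2 CPM in Apert (log2 0.33 ± 0.32 SE, adjusted p = 0.749, edgeR). Hk2, the inducible hexokinase, Gpi1, glucose phosphate isomerase, Pfkm and Pfkp, the other phosphofructokinase subunits, and Aldoc, a minor aldolase, had log2 fold changes from -0.35 to -0.12, each with overlapping groups.

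In lower glycolysis, the steps that regain ATP, 4 of 5 genes lay below 0, with a median of -0.21, and none was called. Gapdh (chr6:125161853-125166467) stood at 545, 646 and 420 CPM in WT and at 500, 370 and 325 CPM in Apert. The Apert mean of 399 ± 90.9 CPM was below the WT mean of 537 ± 113 CPM (SD, n = 3), with Apert replicate 1 inside the WT range (log2 -0.43 ± 0.17 SE, unadjusted p = 0.0238, adjusted p = 0.351, edgeR). Pkm, pyruvate kinase (chr9:59656368-59679375), stood at 98.3, 104 and 76.2 CPM in WT and at 96.3, 55.1 and 66.8 CPM in Apert. Here too Apert replicates 2 and 3 were the lowest of the 6 (log2 -0.35 ± 0.19 SE, adjusted p = 0.518, edgeR). Gene counts do not separate the PKM1 and PKM2 isoforms, which come from this 1 gene. Pgk1, phosphoglycerate kinase, was the one gene above 0 (log2 0.15 ± 0.23 SE), with Apert replicate 1 at 82.6 CPM and the other 5 libraries between 40.8 and 57.5 CPM, and the log2 fold change without Apert replicate 1 was -0.28. Pgam1, phosphoglycerate mutase, was lower in every Apert library, at 13.4 to 14.2 CPM against 14.9 to 16.5 CPM (log2 -0.21 ± 0.23 SE, adjusted p = 0.782, edgeR). Eno1, enolase, stood at 153 to 210 CPM in WT and 135 to 168 CPM in Apert (log2 -0.21 ± 0.16 SE, adjusted p = 0.66, edgeR).

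Apert replicate 1 lay apart from the other Apert libraries for these enzymes. Summed over the 14 enzyme genes from hexokinase to pyruvate kinase, levels were 1168, 1319 and 946 CPM in WT and 1140, 817 and 789 CPM in Apert. The WT mean was 1144 ± 188 CPM and the Apert mean 915 ± 195 CPM (SD, n = 3), and the groups overlapped through Apert replicate 1. Relative to each gene's mean over the libraries, 11, 11 and 6 of the 14 enzymes were high in WT replicates 1, 2 and 3, against 8, 3 and 4 in Apert replicates 1, 2 and 3. The median deviation was 0.13, 0.32 and -0.07 on the log2 scale in WT and 0.08, -0.22 and -0.25 in Apert. Without Apert replicate 1, Aldoa (log2 -1.08, adjusted p = 0.0142, edgeR) and Gapdh (log2 -0.66, adjusted p = 0.0479, edgeR) were called lower, and 13 of the 14 enzymes lay below 0, with a median of -0.32 in place of -0.24. In that fit 110 of all 13848 genes tested were called lower and 119 higher, and 7096 lay below 0. Leaving out other libraries moved Aldoa and Gapdh the other way. Aldoa was at -0.37 without Apert replicate 3 (adjusted p = 0.71, edgeR), and Gapdh was at -0.28 without WT replicate 2 (adjusted p = 0.793, edgeR). Tpi1 ranged from -0.49 to -0.17 and Pkm from -0.64 to -0.19 with each library left out. The count over all genes moved from 60 to 229 without Apert replicate 1. Apert replicate 1 was also the Apert library with the most counts, 10527915 against 7560437 and 6760510, and with the lowest mitochondrial share, 34.3% against 36.6% and 40.4%. In bulk tissue, fewer cells of a type and less RNA per cell cannot be told apart.

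**Figure D3:**
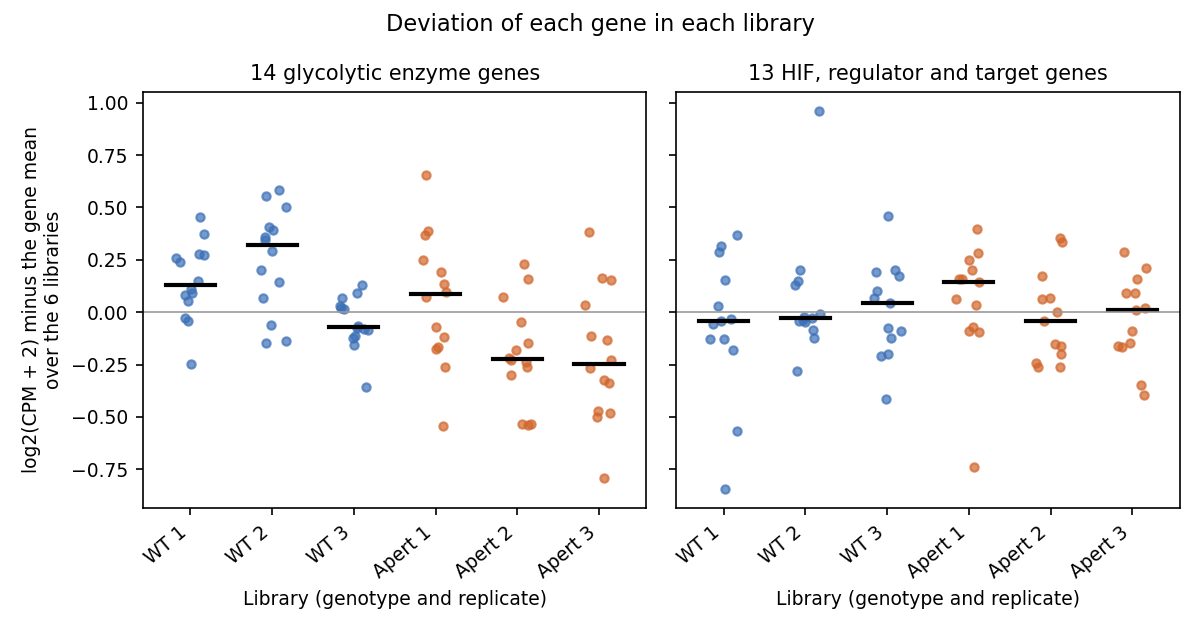
Deviation of log2(CPM + 2) from each gene's mean over the 6 libraries, 1 point per gene, for the 14 glycolytic enzyme genes (left) and the 13 HIF, regulator and target genes (right), with black lines at the medians. Enzyme medians run from 0.32 in WT replicate 2 to -0.25 in Apert replicate 3, with Apert replicate 1 at 0.08 beside the WT libraries, while the medians of the 13 genes stay between -0.04 and 0.14.

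The enzyme values changed with a correction for GC content. The median GC content of the longest transcript was 51.9% for the 34 genes and 48.9% for all genes tested. Pkm, Eno1, Pfkl and Aldoa had 57.7%, 57.4%, 57.1% and 56.9%. With a smooth GC correction of each library, the enzyme median went from -0.24 to -0.08 and the count over all genes from 60 to 5. The log2 fold changes became -0.32 for Aldoa, -0.30 for Pfkl, -0.12 for Tpi1, -0.11 for Ldha, -0.07 for Pkm, -0.47 for Ldhb and -0.30 for Gapdh. That of Eno1 turned from -0.21 to 0.06. After the correction 22 of the 34 genes still lay below 0, and the part of GC content in the result was not tested further.

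Of the 5 pyruvate and lactate genes 4 lay below 0, with a median of -0.12, and none was called. Ldhb (chr6:142490249-142507957) stood at 108, 62.6 and 70.6 CPM in WT and at 66.2, 46.0 and 46.7 CPM in Apert. It had the smallest p of the 34, with Apert replicate 1 between WT replicates 2 and 3 and the other Apert libraries below all WT libraries (log2 -0.60 ± 0.21 SE, unadjusted p = 0.0103, adjusted p = 0.259, edgeR). Without WT replicate 1, the highest library, its log2 fold change was -0.32 (adjusted p = 0.731, edgeR). Ldha (chr7:46841475-46855627) stood at 406, 474 and 401 CPM in WT and at 500, 369 and 239 CPM in Apert. Its Apert libraries held both the highest and the lowest of the 6 values (log2 -0.21 ± 0.19 SE, adjusted p = 0.735, edgeR). Slc16a1, the lactate transporter MCT1 (chr3:104638668-104658462), stood at 30.3, 26.4 and 30.4 CPM in WT and at 42.2, 29.5 and 35.2 CPM in Apert. It was the one gene of this role above 0, with Apert replicate 2 inside the WT range (log2 0.30 ± 0.20 SE, adjusted p = 0.601, edgeR; log2 0.15 with the GC correction and 0.14 with library totals alone). Slc16a3 (MCT4), the transporter linked with lactate export, stood at 5.03 to 6.36 CPM in WT and 4.38 to 5.44 CPM in Apert. Pdk1, the kinase that restrains pyruvate dehydrogenase, stood at 70.0 to 79.0 CPM in WT and 65.5 to 78.7 CPM in Apert (log2 -0.05 ± 0.15 SE, 95% interval -0.38 to 0.27).

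Hif1a, the oxygen-regulated subunit (chr12:73901375-73947530), was the one gene of the 34 higher in every Apert library, at 195, 211 and 199 CPM against 171, 172 and 177 CPM. The gap was small and the replicates tight, with means of 202 ± 7.97 and 173 ± 3.44 CPM (SD, n = 3), and it did not pass the test (log2 0.22 ± 0.13 SE, adjusted p = 0.547, edgeR). The log2 fold change was 0.02 with the GC correction, Hif1a having 41.3% GC, and 0.06 with library totals alone. Epas1, the HIF2A subunit, stood at 2.51 to 5.69 CPM in WT and 4.36 to 6.53 CPM in Apert (log2 0.50 ± 0.41 SE, adjusted p = 0.699, edgeR). Arnt, the constant partner subunit, stood at 90.9 to 102 CPM in WT and 88.3 to 98.7 CPM in Apert (log2 -0.02 ± 0.14 SE, 95% interval -0.32 to 0.29). Egln1, the main oxygen-sensing prolyl hydroxylase, stood at 42.5 to 50.3 CPM in WT and 43.8 to 57.2 CPM in Apert (log2 0.15 ± 0.17 SE). Its log2 fold change was 0.37 with the GC correction (adjusted p = 0.66, edgeR) and 0.07 to 0.25 with each library left out. Egln3, a prolyl hydroxylase that is itself a HIF target, stood at 5.69 to 9.62 CPM in WT and 6.12 to 8.33 CPM in Apert. Vhl, the ubiquitin ligase subunit, stood at 10.1 to 14.6 CPM in WT and 8.1 to 12.8 CPM in Apert (log2 -0.30 ± 0.28 SE). Of these 6 genes 3 lay above 0 and 3 below, with a median of 0.07.

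HIF targets outside glycolysis had a median log2 fold change of -0.01, with 3 of 7 above 0 and 4 below, and none was called. P4ha1, a collagen prolyl hydroxylase subunit (chr10:59323296-59373304) and the most abundant of the 7 per length, stood at 141, 144 and 152 CPM in WT and at 176, 130 and 129 CPM in Apert. The means were level while the Apert spread was wider, with Apert replicate 1 above all and the others below all WT libraries (log2 -0.01 ± 0.15 SE, 95% interval -0.32 to 0.31). Vegfa, the vessel growth factor, stood at 30.7 to 39.0 CPM in WT and 32.7 to 44.6 CPM in Apert (log2 0.12 ± 0.20 SE, 95% interval -0.30 to 0.53). Bnip3 and Bnip3l, mitophagy receptors, stood at 23.6 to 29.2 and 61.9 to 71.2 CPM in WT and at 18.6 to 30.2 and 57.5 to 65.3 CPM in Apert. Their log2 fold changes were -0.03 ± 0.22 and -0.10 ± 0.16 SE. Ankrd37 and Ddit4, the latter an inhibitor of mTORC1, stayed between 1.52 and 4.16 CPM in all libraries. Ndrg1, a stress-induced gene, varied most within groups, at 0.78, 7.71 and 4.87 CPM in WT and 0.992, 2.99 and 3.57 CPM in Apert, on 9 to 80 counts (log2 -0.85 ± 0.65 SE, adjusted p = 0.677, edgeR). It was at -0.18 without WT replicate 2 and -1.35 without WT replicate 1.

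Most families in the list had 1 leading paralog in both genotypes. Hk2 made up 93.0% ± 1.78 of the hexokinase pair per length in WT and 90.0% ± 4.57 in Apert, and Aldoa 93.1% ± 1.43 and 90.3% ± 4.46 of the aldolase pair (SD, n = 3 each). Ldha made up 73.8% ± 6.83 of the lactate dehydrogenase pair in WT and 77.9% ± 4.31 in Apert, and Slc16a1 86.2% ± 2.55 and 89.3% ± 2.22 of its transporter pair. Phosphofructokinase had no clear leader in either genotype, with Pfkl at 45.9% ± 3.15, Pfkm at 43.4% ± 3.28 and Pfkp at 10.7% ± 1.37 in WT, and 40.2% ± 8.24, 48.9% ± 7.11 and 10.9% ± 3.01 in Apert. Bnip3l held 60.2% ± 3.11 and 59.4% ± 4.45 of the mitophagy receptor pair, and Egln1 81.7% ± 4.13 and 85.0% ± 2.03 of the pair with Egln3. With Egln2, which is outside the list, also counted, Egln1 held 66.4% ± 2.89 in WT and 73.0% ± 5.75 in Apert. Egln2 then held 18.6% ± 0.88 and 14.2% ± 6.16, and Egln3 14.9% ± 3.47 and 12.9% ± 1.92. Epas1 held only 2.49% ± 0.982 and 3.03% ± 0.524 of the pair with Hif1a. All of these shares overlapped between groups.

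Hif3a, a subunit gene outside the list whose splice forms can act against the other subunits, was set beside Hif1a after its values were seen. It was abundant, at 24.6 ± 3.85 CPM per kb in WT, and stood at 141, 193 and 162 CPM in WT and at 127, 138 and 133 CPM in Apert, lower in every Apert library. The difference did not pass adjustment (log2 -0.32 ± 0.15 SE, unadjusted p = 0.0435, adjusted p = 0.426, edgeR). As a share of Hif1a, Epas1 and Hif3a per length, Hif1a was 57.3%, 49.4% and 54.8% in WT and 62.7%, 62.2% and 61.7% in Apert. Hif3a was 41.7%, 48.8% and 43.9% in WT and 35.8%, 35.7% and 36.2% in Apert. These groups did not overlap, which follows from the single values of Hif1a and Hif3a, so the shares add no support to them. The log2 fold change of Hif1a was 0.02 with the GC correction. Because the comparison was chosen for its lack of overlap, it is given with no test.

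**Figure D4:**
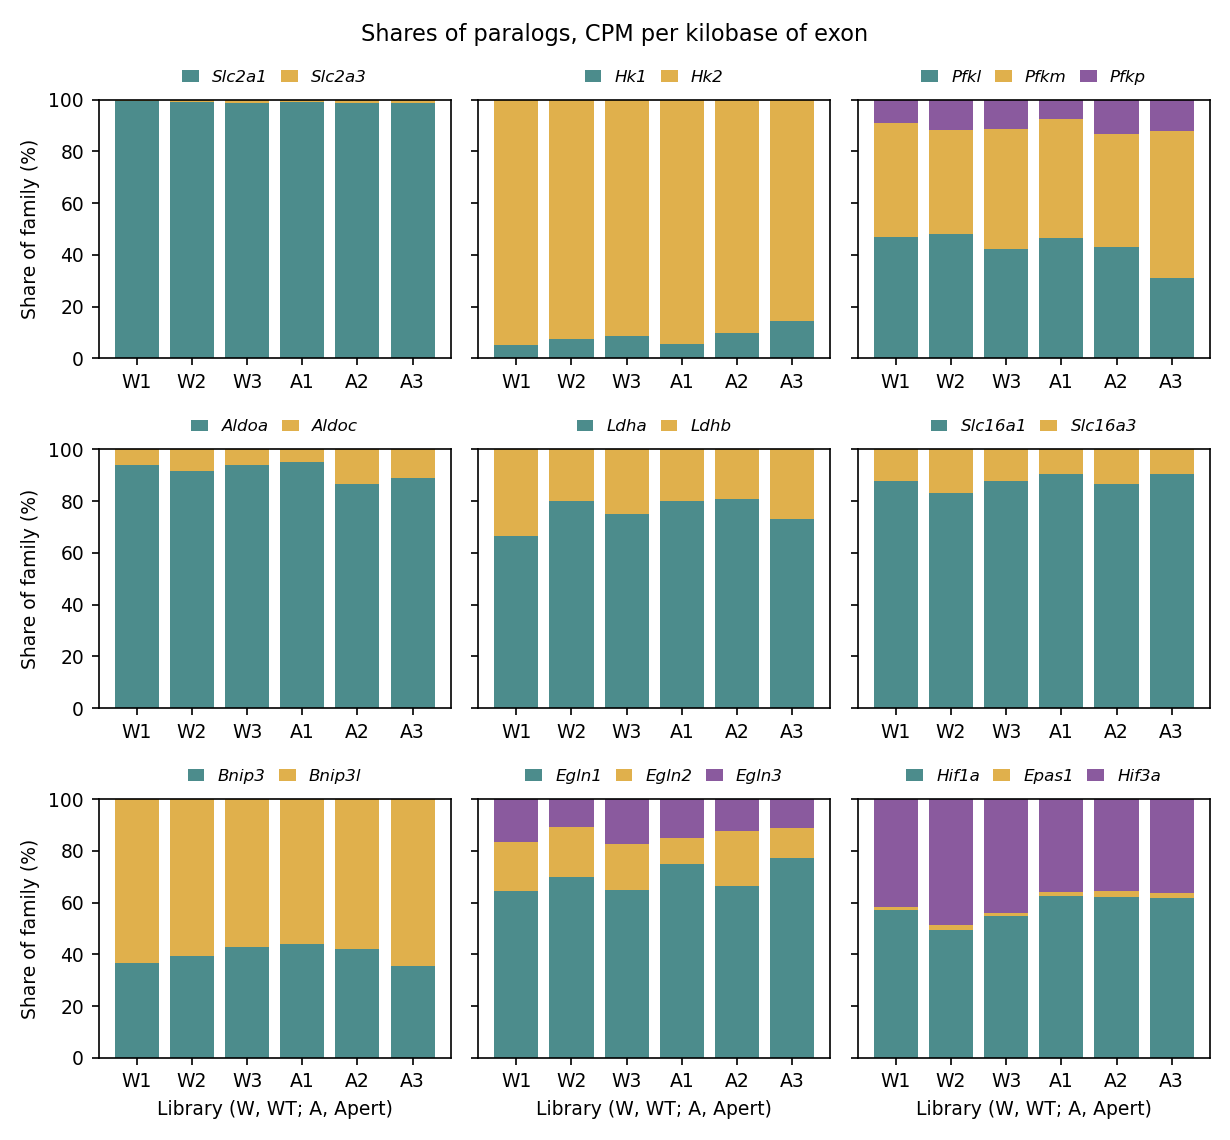
Share (%) of each paralog in its family, from CPM per kilobase of exon, in WT (W1 to W3) and Apert (A1 to A3) libraries. One paralog holds most of the transporter, hexokinase, aldolase and lactate dehydrogenase families in all 6 libraries, and phosphofructokinase is mixed. The Hif1a share in the last panel, a comparison chosen after its values were seen, is 49.4 to 57.3% in WT and 61.7 to 62.7% in Apert.

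Processed copies, which are intronless pseudogenes made from reverse-transcribed RNA, bear on how reads of glycolytic genes are assigned. Of 9285 annotated processed pseudogenes with a closest protein-coding gene, 451 were closest to 1 of the 34 genes, and 15 of the 34 had at least 1. This assignment left out predicted genes and Eno1b as closest genes, a choice made after a first alignment, and the numbers for Gapdh and Eno1 depend on it. Gapdh had 333, of which 45 were at least 95% identical and 282 had a row in the count files. Ldha had 35, Eno1 17, Pkm 16 and Aldoa 11. With predicted genes and Eno1b kept, Gapdh had 1, Eno1 had 6 and the 34 genes had 108 together, while Ldha, Pkm and Aldoa had the same numbers. The copies of Gapdh held 13.1% of the counts of gene and copies together, 12.2% in WT and 14.7% in Apert, and the 9 copies of Pgam1 held 9.64%. For Eno1, Ldha, Aldoa and Pkm the copies held 0.979%, 0.521%, 0.031% and 0.021%. Adding the copies to their genes moved the log2 fold change of Gapdh from -0.43 to -0.38 and called none of the 34. Eno1b, an intronless gene 99.5% identical to Eno1, held 3 to 10 counts per library, and how many reads matched both genes was not measured here.

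Of the 34 genes, 9 share exon sequence with a gene on the other strand, and the counting did not use strand to separate them. These are Slc2a1, Hk1, Gpi1, Pfkm, Pfkp, Tpi1, Hif1a, Ankrd37 and Ndrg1, and of them Hif1a shares exons with the predicted antisense gene Gm15283. How many reads fell in the shared exons, and whether they were counted or left out, was not measured.

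Of 92 other genes of glucose use, lactate handling and the HIF pathway, 75 passed the filter on low counts and edgeR called 0 of them, with 39 above 0 and 36 below. At an unadjusted p under 0.05, 1 was higher and 7 were lower in Apert, against 6.35% and 5.01% of all genes tested, and DESeq2 and limma-voom also called 0. The 6 with the smallest p included G6pdx, the entry enzyme of the pentose phosphate pathway, which draws on the same glucose 6-phosphate as glycolysis. It stood at 37.2, 40.2 and 31.9 CPM in WT and at 27.4, 22.3 and 14.6 CPM in Apert, lower in every Apert library (log2 -0.76 ± 0.23 SE, adjusted p = 0.169, edgeR). It was called without Apert replicate 1 (log2 -1.01, adjusted p = 0.0342, edgeR) and with no filter on low counts. Kdm4b, a histone demethylase and HIF target, was at 8.39 to 9.1 CPM in WT and 3.68 to 4.7 CPM in Apert (log2 -1.02 ± 0.33 SE, adjusted p = 0.221, edgeR). Bsg, the chaperone that carries MCT1 to the membrane, had a log2 fold change of -0.52 ± 0.20 SE, Pdp2, a pyruvate dehydrogenase phosphatase, -0.66 ± 0.28 SE, and Slc16a7 (MCT2) -0.60 ± 0.26 SE. Lox, the collagen cross-linking enzyme and a HIF target, was the one above 0, at 33.3 to 38.1 CPM in WT and 38.3 to 62.6 CPM in Apert (log2 0.45 ± 0.20 SE, adjusted p = 0.398, edgeR).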

How the data were processed

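RNA was measured in 6 libraries, amplified from 15 ng each before library preparation, per the labels' protocols. The authors deposited raw counts per Ensembl gene, with paired reads of 100 bases, made with STAR 2.5.2b and featureCounts 1.4.4 on mm10, per the submitters' processing notes. The count of reads did not use strand and set no option for multiply mapped reads, per the file headers. From these counts the test was run in edgeR 4.0.16 (quasi-likelihood, filterByExpr, TMM, Benjamini-Hochberg at 0.05) over 13333 genes, Apert against WT, and CPM was computed with TMM scaling. The 95% intervals are those of the fit. It was tested on simulated data. Alternatives used DESeq2 1.42.0, limma 3.58.1 and a GC smooth in mgcv 1.9.3. Gene positions and exon lengths are those of the deposited files, GC content and pseudogene sequences came from GENCODE M21, and copies were assigned with blastn 2.17.0, leaving out predicted genes and Eno1b. By rule, genes given with all 6 values are the called ones, the 8 not called with the smallest p and the most abundant per length of each role, and other pathway genes named are the called ones and the 6 with the smallest p. Outside the rule, Ndrg1, Hif3a, Egln2, Slc2a10, Plod2, Car12, Adm and Pgk2, and all 6 values of G6pdx, were chosen after their values were seen. The genes and lists were chosen with earlier results of these data known.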

Additional observations from a re-analysis of the deposited data

How the results depend on the processing

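Over all genes, 247 were called with no filter on low counts, 204 by DESeq2, 172 with the replicate number as a block and 5 with the GC correction, against 60, and 0 to 229 with each library left out. The count was 15, 23 and 0 without WT replicates 1, 2 and 3 and 229, 2 and 11 without Apert replicates 1, 2 and 3; at the count of 0, edgeR had 733 genes higher and 643 lower at an unadjusted p under 0.05. None of the 34 genes was called with all libraries kept (lowest adjusted p 0.0527), and 0 to 2 were lower with a library left out, the 2 being Aldoa and Gapdh without Apert replicate 1. Their median was -0.27 with library totals alone, which moved the median of all genes from 0.01 to -0.14. Of the other pathway genes, G6pdx was the 1 called with no filter, and 0 to 1 were called with a library left out. The labels do not say whether shared replicate numbers pair the libraries. Deviations from the group means correlated at 0.238, 0.031 and 0.088 for equal numbers 1, 2 and 3. For unequal numbers the correlations were -0.162 to 0.085. Apert replicates 1 and 3 correlated best with the WT library of equal number, and Apert replicate 2 with WT replicate 3. Pairing was not tested further, and the block called none of the 34.

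Of 374 log2 fold changes of the 34 genes under 11 other settings, 356 kept their sign and 18 turned. With the GC correction Slc2a1, Eno1 and Slc16a3 became 0.0556, 0.0607 and 0.12, and with the replicate block as well 0.0278, 0.0578 and 0.12. Slc2a3 became -0.0031 with DESeq2's size factors in edgeR, -0.15 with library totals, -0.0181 with no filter, -0.0022 with DESeq2, -0.0251 with the GC correction, -0.0109 with the block and GC correction and -0.0012 without the mitochondrial genome. With library totals Pgk1, Egln1, Vegfa and Ankrd37 became -0.0012, -0.0086, -0.0337 and -0.14, and Ankrd37 was -0.0003 with no filter. The cause of these turns was not tested. With each library left out, 21 genes kept their sign; the others ranged from -0.14 to 0.14 (Slc2a3), -0.44 to 0.0526 (Hk2), -0.31 to 0.0085 (Gpi1), -0.54 to 0.09 (Aldoc), -0.28 to 0.33 (Pgk1), -0.52 to 0.0203 (Ldha), -0.12 to 0.0053 (Pdk1), -0.0631 to 0.0326 (Arnt), -0.0569 to 0.23 (Vegfa), -0.22 to 0.13 (Bnip3), -0.16 to 0.21 (Ankrd37), -0.20 to 0.0658 (P4ha1) and -0.21 to 0.52 (Ddit4). Adding processed copies, and keeping predicted genes as closest genes (1 copy of Gapdh in place of 333, and 6 of Eno1 in place of 17), were chosen after the data were seen.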

Other observations

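Among the listed genes, the most abundant HIF target per length was not 1 of the 34. Plod2, the lysyl hydroxylase that prepares collagen for cross-links, stood at 333 ± 37.4 CPM per kb in WT (SD, n = 3) and ranked 39 of the genes tested, above Gapdh. It stood at 1247 to 1557 CPM in WT and 1365 to 1763 CPM in Apert (log2 0.22 ± 0.14 SE, adjusted p = 0.574, edgeR). Car12, a carbonic anhydrase, ranked 194 at 83.2 ± 3.4 CPM per kb in WT. Adm, a peptide hormone gene widely used as a hypoxia marker, had no count in any of the 6 libraries, where a level of up to 3 counts per library could be missed, and Pgk2, the testis form of phosphoglycerate kinase, was at 0 as well. These genes were picked after their values were seen.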
